A study of Mus musculus with 6 samples.

Results

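The noradrenergic factor and enzyme genes Phox2a, Th, Dbh, Hand1, Hand2, Gata2 and Gata3 were followed in lumbar dorsal root ganglia of mouse embryos at E12.5. They were chosen by name, as genes that define sympathetic neurons, and not by their values; they are 7 of the 24264 genes in the deposited table, and all 7 were found there. RNA was sequenced in 3 miR_cKO and 3 control libraries from mice of a mixed C57/Bl6 x 129/SvEv strain; no source used here says whether a library pooled embryos. The miR_cKO mice carried Wnt1-Cre and were flox/flox for the miR-183-96-182 microRNA cluster, which is thus deleted where the Cre acts. Among the controls, replicates 1 and 3 were titled Wnt-Cre and replicate 2 WT. Wnt1-Cre acts in the neural crest, which gives rise to sensory neurons, their glia and sympathetic neurons, so other cells in a dissected ganglion keep the cluster. Values are RPKM, reads per kilobase of transcript and per M mapped reads (M, mega), and the estimated depth was 20.7 to 22.3 M reads in miR_cKO and 20.0 to 24.1 M reads in control libraries.

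Sympathetic neurons and sensory neurons both descend from the neural crest but take different identities. In the sympathetic lineage the homeodomain factor Phox2a acts with the bHLH factors Hand2 and Hand1 and with the zinc finger factors Gata2 and Gata3 to turn on the enzymes of noradrenaline synthesis. Tyrosine hydroxylase, encoded by Th, makes the dopamine precursor from tyrosine, and dopamine beta-hydroxylase, encoded by Dbh, converts dopamine to noradrenaline. The sympathetic chain lies close to the dorsal root ganglia in the embryo. Th is also known outside this lineage, in a class of touch-sensing neurons of adult mouse ganglia, Gata2 in endothelial and blood cells, and Hand1 and Hand2 in heart and other mesenchyme.

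The sequences that bear on the comparison are the deleted microRNAs and the start regions of both enzyme genes. The mature microRNAs are given from RefSeq (GRCm38.p6, chromosome 6, minus strand), with the seed, bases 2 to 8, in capitals. The seeds of miR-96 and miR-182 differ only in their last base.
mmu-miR-183-5p: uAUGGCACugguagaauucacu
mmu-miR-96-5p: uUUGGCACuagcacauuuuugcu
mmu-miR-182-5p: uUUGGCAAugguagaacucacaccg
Matches to these seeds (GTGCCAT for miR-183, GTGCCAA for miR-96 and TTGCCAA for miR-182) were looked for in 3 prime UTRs of GENCODE M21, on the same build, with the longest coding transcript standing for each gene. Of the 7 genes, only Hand1 held a match. It was a miR-182 site followed by an A on chromosome 11 at 57828754 to 57828760 (minus strand), shown with the 7 matching bases in capitals.
Hand1 site: agccccaccctTTGCCAAagcagtatcta
For comparison, 23.7% of the 18231 genes of the table with such a UTR held at least 1 of the 3 matches. The UTR of Th, at 233 bases, held none, and those of Gata2 and Gata3, at 1536 and 1292 bases, held none either. A match is a description of the letters and not evidence of binding.

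The regions from 250 bases before to 50 bases after the start of Th and Dbh are shown because the enzyme pair parted in level, as described below. They come from RefSeq (GRCm38.p6), Th at chr7:142899946-142900245 on the minus strand and Dbh at chr2:27165257-27165556 on the plus strand. Capitals mark a full cAMP response element, TGACGTCA.
Th start region: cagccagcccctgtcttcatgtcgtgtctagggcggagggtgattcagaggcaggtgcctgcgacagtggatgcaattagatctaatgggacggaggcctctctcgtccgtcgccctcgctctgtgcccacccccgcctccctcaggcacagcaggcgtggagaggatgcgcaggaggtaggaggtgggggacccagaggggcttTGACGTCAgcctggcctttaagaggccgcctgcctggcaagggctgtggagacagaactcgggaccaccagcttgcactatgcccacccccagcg
Dbh start region: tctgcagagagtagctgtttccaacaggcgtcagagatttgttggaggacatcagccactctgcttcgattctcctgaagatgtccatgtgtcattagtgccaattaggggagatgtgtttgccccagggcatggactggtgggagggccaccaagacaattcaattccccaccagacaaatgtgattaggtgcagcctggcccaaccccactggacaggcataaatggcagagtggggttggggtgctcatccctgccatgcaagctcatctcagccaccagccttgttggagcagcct
The element began 45 bases before the start of Th (position -45) and was in none of the other 5 members with a start region in the table, Hand1 having none there. It occurred in 1.79% of 32851 start regions of this length. Both strands were searched, also for the GATA factor motif AGATAA (11.2% of start regions), the homeodomain motif TAATTA (5.29%) and the E-box CANNTG (72.3%). Shorter homeodomain motifs were not searched for. Neither AGATAA nor TAATTA occurred in the start regions of Th or Dbh, and Hand2 held 1 of each, which shared bases. Th held 1 E-box and Dbh 2.

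Of the 7 genes, Th alone was at 1 RPKM or more in every library. It reached a mean of 19.8 ± 12.4 RPKM over the 6 libraries (SD), above 84.0% of the genes in the table. The other 6 genes had means under 1 RPKM, against a median of 1.79 RPKM over all genes. In order of mean level they were Gata2 (0.925 RPKM), Phox2a (0.526 RPKM), Gata3 (0.166 RPKM), Hand2 (0.126 RPKM), Dbh (0.0656 RPKM) and Hand1 (0.0393 RPKM). Every library of Th lay above every library of Gata2, every library of Gata2 above every library of Phox2a, and every library of Phox2a above every library of Gata3. The ranges of Gata3, Hand2, Dbh and Hand1 overlapped. In such bulk libraries, fewer cells of a type and less RNA per cell cannot be told apart.

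**Figure D1:**
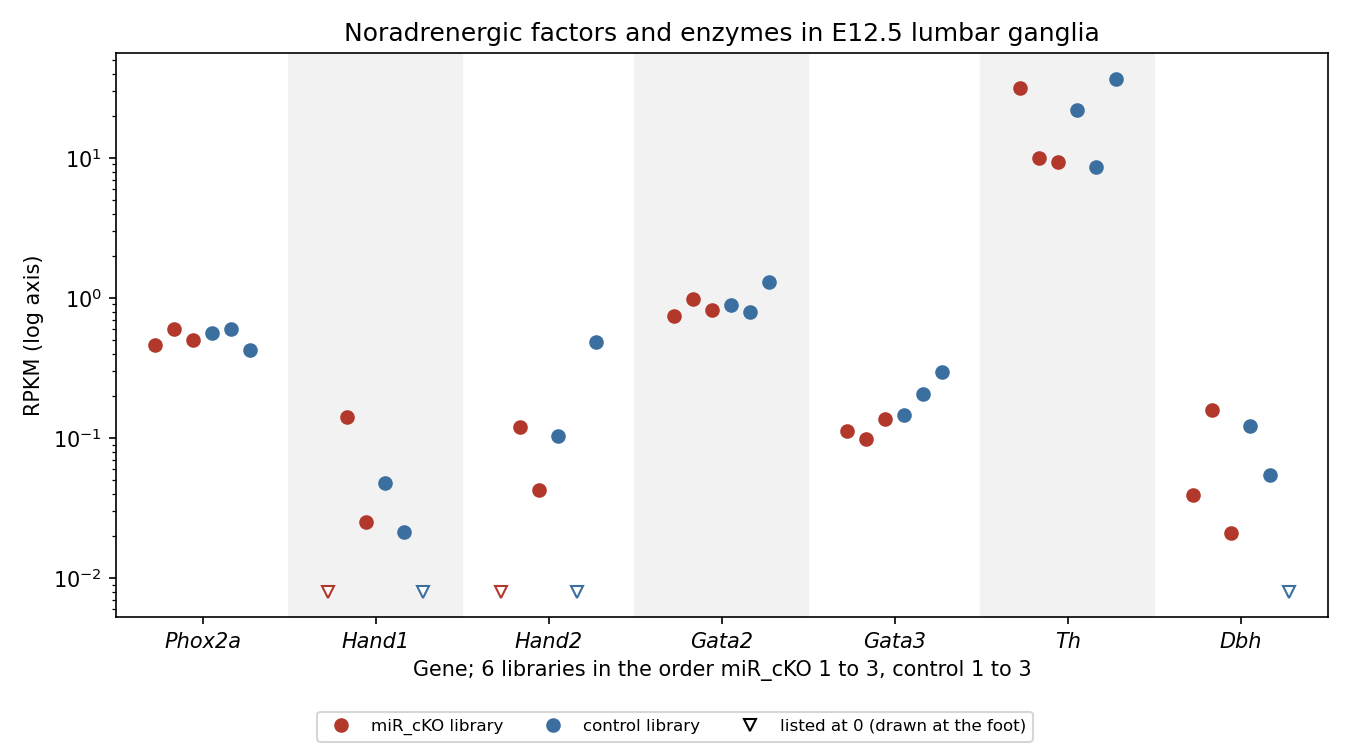
RPKM of the 7 genes (log axis) in each of the 3 miR_cKO libraries (red) and 3 control libraries (blue); open triangles mark libraries listed at 0. Th lies between 8.57 and 36.9 RPKM in all 6 libraries, Gata2 and Phox2a keep a narrow range, and Hand1, Hand2 and Dbh fall to 0 in at least 1 library.

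The ganglia carried the identity of sensory neurons. Isl1, a LIM homeodomain factor that sympathetic neurons share, was at 143 to 199 RPKM in miR_cKO and 161 to 202 RPKM in control libraries. The sensory factors Prdm12 and Pou4f1 were at 53.8 to 91.0 and 69.3 to 83.2 RPKM in miR_cKO, against 78.9 to 98.4 and 66.1 to 77.6 RPKM in control libraries. By contrast, Slc6a2, the transporter with which noradrenergic neurons take noradrenaline back up, was at or near 0, with 2, 1 and 0 reads in miR_cKO 1 to 3, against 0, 0 and 1 reads in controls 1 to 3. The whole reads come from the steps between the deposited values, as whole multiples of what 1 read is worth. Slc6a2 comes from a wider list of 24 sympathetic neuron genes. Of these, 4 had means under 1 RPKM, while 20 had at least 3 libraries at 1 RPKM or more. The name sympathetic neuron genes says what the genes are known for, and this 1 marker of noradrenergic neurons was barely detected in these ganglia.

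Genotype was first checked on the deleted cluster. Mir183, Mir96 and Mir182 were listed at 0 in all 6 libraries, and since polyadenylated RNA libraries hold few microRNA precursors, these values check nothing. By Xist, which coats the inactive X in females, miR_cKO 1 stood apart, with 96.0 RPKM there and at most 0.0890 RPKM in the other libraries.

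Among the lineage factors, Phox2a was low and even. Phox2a (mm10 chromosome 7, 101818313 to 101822726, plus strand), an early factor of the noradrenergic programme, was at 0.462, 0.605 and 0.498 RPKM in miR_cKO 1 to 3, against 0.563, 0.604 and 0.424 RPKM in controls 1 to 3. The groups overlapped fully. These values stand for 17, 22 and 17 reads in miR_cKO and 20, 24 and 14 reads in control libraries. The chi-square per degree of freedom over the 6 libraries, given depth, was 0.395, so the libraries differed by less than counting noise would give on average. The difference on the log2(RPKM + 1) scale was -0.01 (exact permutation test, two-sided p = 1.0; the smallest p that 3 against 3 can give is 0.1). It turned to 0.02 with median centring.

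A neighbour bears on the Phox2a value. The last 95 exonic bases of Phox2a, at 101822632 to 101822726, overlap exons of Inppl1, a lipid phosphatase gene on the opposite strand. Inppl1 was at 10.6, 16.5 and 17.0 RPKM in miR_cKO 1 to 3, against 13.1, 18.4 and 15.1 RPKM in controls 1 to 3. At that level per length, 95 bases correspond to 22.5 to 34.4 reads in miR_cKO and 26.7 to 42.0 reads in control libraries, more than all reads of Phox2a in every library. The library kit keeps the strand, but no source used here says whether counting took it into account. The part of Inppl1 in the Phox2a value was not tested.

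**Figure D2:**
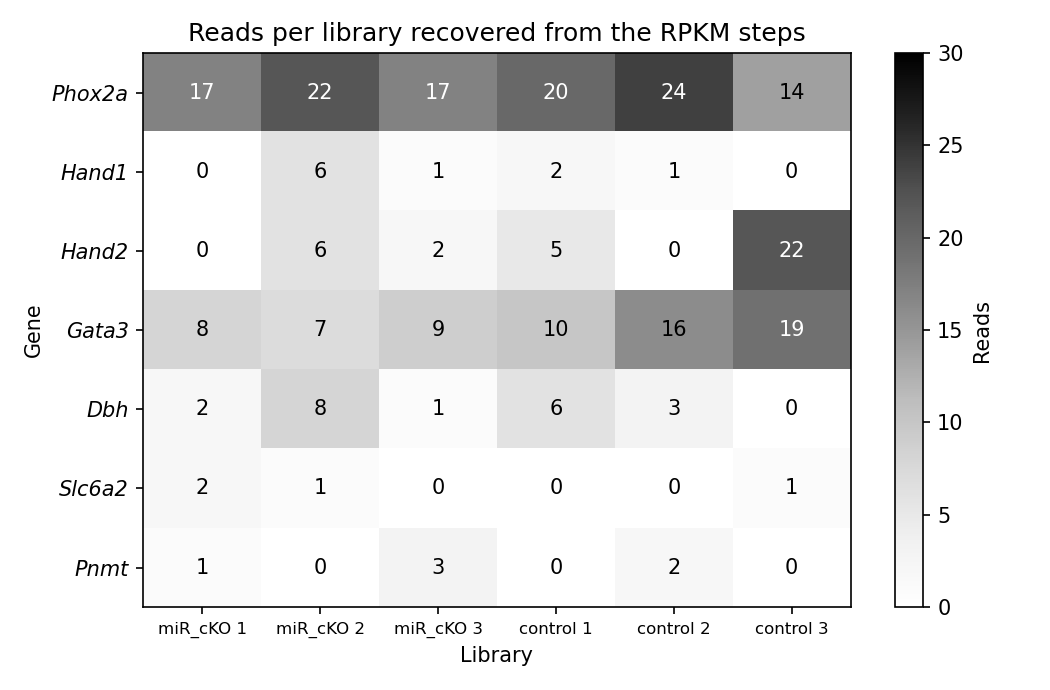
Whole reads per library for Phox2a, Hand1, Hand2, Gata3, Dbh, Slc6a2 and Pnmt (rows) in miR_cKO 1 to 3 and controls 1 to 3 (columns); darker cells hold more reads. Phox2a holds 14 to 24 reads in every library, while Slc6a2 holds at most 2.

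Hand1 and Hand2 were close to the limit of detection. Hand1 (chromosome 11, 57828705 to 57832818, minus strand), a bHLH factor of heart and sympathetic precursors, had 0, 6 and 1 reads in miR_cKO 1 to 3, against 2, 1 and 0 in controls 1 to 3. In RPKM these were 0, 0.141 and 0.0251, against 0.0482, 0.0215 and 0. Over all libraries 10 reads were found (exact Poisson 95% interval 4.80 to 18.4, covering counting error only), and without miR_cKO 2 the mean level was 0.0190 in place of 0.0393 RPKM. Where a library has 0 reads, up to 3 reads are allowed, which for Hand1 is 0.0697 RPKM in miR_cKO 1 and 0.0777 RPKM in control 3. The gene with the only seed match of the 7 was thus too low to be followed between the groups (log2 difference 0.04, exact permutation p = 0.7, with a value of -0.02 without miR_cKO 2).

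Hand2 rested on 1 library. Hand2 (chromosome 8, 57320983 to 57324633, plus strand), the bHLH factor that sympathetic neurons need to become noradrenergic, had 0, 6 and 2 reads in miR_cKO 1 to 3, against 5, 0 and 22 in controls 1 to 3. The level was 0.487 RPKM in control 3 and at most 0.121 RPKM in the other 5 libraries. The mean over the libraries was 0.126 RPKM, and 0.0534 RPKM without control 3. The chi-square per degree of freedom was 13.3, well above counting noise. The log2 difference was -0.16 (exact permutation p = 0.7) and turned to 0.0043 without control 3. Hand2 overlaps Hand2os1 on the opposite strand, for which no value was used here.

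Control 3 was also the library with the highest summed level of the mesenchyme list, at 140, 189 and 224 RPKM in miR_cKO 1 to 3, against 165, 296 and 314 RPKM in controls 1 to 3. Of the 17 mesenchyme genes none was at 0 throughout. Control 2, with the next highest mesenchyme level, had 0 reads of Hand2. The summed muscle list, of 11 genes, was at 7.32 to 23.3 RPKM in miR_cKO and 9.82 to 157 RPKM in controls, highest in controls 2 and 3. The part of these cells in the Hand2 value was not tested.

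Gata2 was present at a low level in every library. Gata2 (chromosome 6, 88193891 to 88207032, plus strand), a zinc finger factor of sympathetic precursors and of blood and vessel cells, was at 0.750, 0.985 and 0.824 RPKM in miR_cKO 1 to 3, against 0.893, 0.798 and 1.30 RPKM in controls 1 to 3. The groups overlapped, with control 3 above all others. The log2 difference was -0.10 (exact permutation p = 0.6), and it was 0.0044 without control 3. With 54 to 70 reads in miR_cKO and 62 to 84 reads in control libraries, the chi-square per degree of freedom was 2.95.

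Cells that are known to carry Gata2 were present in the ganglia. All 12 endothelial genes fixed as markers were tested, and their summed level was 112 to 163 RPKM in miR_cKO and 113 to 137 RPKM in controls. The endothelial junction gene Cdh5 was at 19.4, 27.5 and 20.5 RPKM in miR_cKO 1 to 3 and 19.7, 22.6 and 22.3 RPKM in controls. The blood list, of which 10 of 13 genes were in the table, was at 36.5 to 44.1 RPKM in miR_cKO and 34.1 to 58.1 RPKM in controls, led by the red cell enzyme gene Alas2. None of the endothelial or blood genes in the table was at 0 throughout. The part of either cell type in the Gata2 value was not tested.

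Gata3 was the only member whose groups did not overlap. Gata3 (chromosome 2, 9857078 to 9890034, minus strand), which keeps Th and Dbh on in sympathetic neurons, was at 0.112, 0.0993 and 0.136 RPKM in miR_cKO 1 to 3, against 0.145, 0.208 and 0.296 RPKM in controls 1 to 3. All 3 miR_cKO libraries thus lay below all 3 controls, with 8, 7 and 9 reads against 10, 16 and 19. Groups did not overlap for 9.61% of the 20024 genes above 0, and 5.71% were lower in miR_cKO without overlap; among the 13118 genes tested these shares were 10.9% and 6.24%. The means were 0.116 ± 0.0186 and 0.216 ± 0.0760 RPKM (SD, n = 3 each), a log2 difference of -0.12 on the log2(RPKM + 1) scale, which understates changes this low. With a pseudocount of 0.1 in place of 1 it was -0.53. The two-sided exact permutation p was 0.1, the smallest that 3 against 3 can give. Without a filter, limma gave an unadjusted p of 0.0504 and an adjusted p of 0.984. The difference was -0.08 without control 3. The mesenchyme and muscle lists were also higher in controls 2 and 3, where Gata3 was highest, and their part was not tested. Gata3 overlaps 4930412O13Rik on the opposite strand, at 0.0336 to 0.109 RPKM, and 9230102O04Rik on its own strand, at 0 to 0.103 RPKM, so that reads from these genes may be counted with it.

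The enzymes of noradrenaline synthesis parted from each other. Th (chromosome 7, 142892752 to 142931128, minus strand) was at 31.6, 10.03 and 9.33 RPKM in miR_cKO 1 to 3, against 22.2, 8.57 and 36.9 RPKM in controls 1 to 3. These values stand for 1263, 396 and 346 reads in miR_cKO and 856, 370 and 1324 reads in control libraries. Dbh (chromosome 2, 27165233 to 27183200, plus strand) was at 0.0390, 0.158 and 0.0210 RPKM in miR_cKO 1 to 3, against 0.121, 0.0542 and 0 RPKM in controls 1 to 3. Dbh thus had 2, 8 and 1 reads in miR_cKO and 6, 3 and 0 reads in control libraries, and 20 in all (exact Poisson 95% interval 12.2 to 30.9). The 0 of control 3 allows up to 0.0651 RPKM.

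Per length, the mean of Th was 301 times that of Dbh, and the lowest library of Th was still 54.3 times the highest library of Dbh. The libraries did not rank alike for the enzyme pair. Control 3 held the highest level of Th and no read of Dbh, while miR_cKO 2, with Th at 10.03 RPKM, held the most reads of both Dbh (8) and Hand1 (6). For Dbh the log2 difference was 0.02 (exact permutation p = 0.7), and it was -0.04 without miR_cKO 2 and -0.02 without control 3.

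The rest of the catecholamine pathway also ranged widely in level. Ddc, the decarboxylase that makes dopamine, was at 0.530, 1.20 and 0.870 RPKM in miR_cKO 1 to 3, against 1.25, 1.40 and 1.94 RPKM in controls. Slc18a2, the vesicular transporter that stores amines in neurons, was steady at 3.33 to 4.48 RPKM in miR_cKO and 3.44 to 4.19 RPKM in controls. Its paralog Slc18a1, typical of endocrine cells, reached no more than 0.322 and 0.254 RPKM. Pnmt, which makes adrenaline, had 1, 0 and 3 reads in miR_cKO and 0, 2 and 0 reads in controls. Gch1, which starts the synthesis of the cofactor that Th needs, was at 0.476 to 0.612 RPKM in miR_cKO and 0.360 to 0.524 RPKM in controls. The other cofactor genes were higher, with means of 35.3 RPKM for Qdpr and 14.9 RPKM for Pts, and the breakdown enzyme Maoa was at a mean of 17.3 RPKM. Th and the storage transporter were therefore measured in ganglia in which the noradrenaline-making enzyme and the uptake transporter were at 0 to 8 and 0 to 2 reads.

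**Figure D3:**
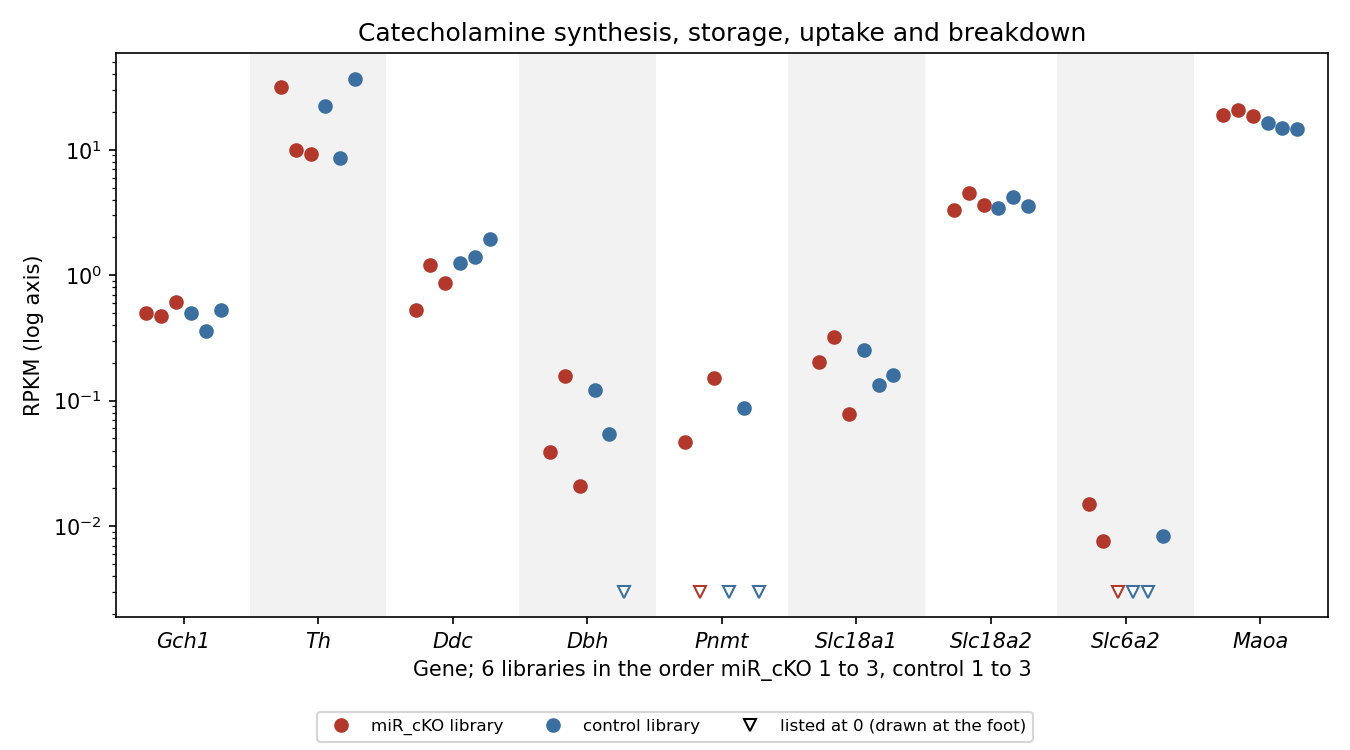
RPKM (log axis) of genes for catecholamine synthesis (Gch1, Th, Ddc, Dbh, Pnmt), storage (Slc18a1, Slc18a2), uptake (Slc6a2) and breakdown (Maoa) in 3 miR_cKO libraries (red) and 3 control libraries (blue); open triangles mark libraries listed at 0. Th, Slc18a2 and Maoa lie above 3 RPKM in every library, while Dbh, Pnmt and Slc6a2 stay under 0.2 RPKM.

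No gene of the pathway passed the test between the groups. Of the 15 pathway genes fixed beside the members, 10 were tested, 0 rose and 0 fell (limma, Benjamini-Hochberg adjusted p under 0.05), and 2 had an unadjusted p under 0.05, as did 5.16% of all genes tested. These 2 were Maoa, with a log2 difference of 0.32 (limma adjusted p = 0.406), and Ddc, with -0.44 (limma adjusted p = 0.922). The median log2 difference of the 10 genes was -0.03, beside -0.02 over all 13118 genes tested. The list of 24 sympathetic neuron genes shares 7 with the pathway list, among them Maoa and Ddc. Of the 24, 20 were tested, 0 rose and 0 fell, no gene but Maoa and Ddc had an unadjusted p under 0.05, and the median was -0.02. The 4 of them with the highest levels, Nefm, Stmn2, Isl1 and Prph, are also genes of sensory neurons.

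Between the groups, no change of the members was detected. Th was the only member to pass the filter on low values (at least 3 libraries at 1 RPKM or more), and 0 of 1 tested members passed, where 0.061% of all genes tested did (0.0534% higher and 0.00762% lower in miR_cKO). Without the filter 0 of 7 members passed (limma), where 0.0449% of genes did, and 0 had an unadjusted p under 0.05, where 4.96% of genes had. Gata3 came closest, with an unadjusted p of 0.0504 (limma). Th averaged 17.0 ± 12.6 RPKM in miR_cKO and 22.5 ± 14.2 RPKM in control libraries (SD, n = 3 each). The log2 difference was -0.39 (SE 0.605, limma adjusted p = 0.9996). With 1 library left out, the direction of this difference turned only without control 3, while its size moved with other libraries too. The log2 difference was 0.06 without control 3 and -0.93 without miR_cKO 1 (limma adjusted p = 0.815). It was -0.94 without control 2, which leaves only the controls with the Cre (limma adjusted p = 0.984).

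What Th did show was a wide spread between libraries of the same group. The highest library was 3.38 times the lowest in miR_cKO and 4.30 times the lowest among controls. Among controls this set control 3, titled Wnt-Cre, against control 2, titled WT. The SD of Th over the 6 libraries was 0.893 on the log2(RPKM + 1) scale, where the median of the tested genes was 0.131, and only 58 of the 13118 genes had a larger one. The chi-square per degree of freedom was 303, so counting noise is a small part of it. The levels fell into a high set, control 3, miR_cKO 1 and control 1, and a low set, miR_cKO 2, miR_cKO 3 and control 2, with a gap between 22.2 and 10.03 RPKM. Each group had libraries in both sets. Among the controls, however, both Wnt-Cre libraries were in the high set and the WT library in the low set. There, the Cre and differences between single libraries cannot be told apart.

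Other genes followed the same libraries. The 3 genes most like Th, by Pearson r of log2(RPKM + 1) over the 6 libraries among 13117 tested genes, were Rap1gap2 (r = 0.995), Dusp8 (r = 0.994) and Kirrel3 (r = 0.994). These values are a description and carry no p, as the genes were picked for them and the libraries fall into separate sets. Rap1gap2, a regulator of the GTPase Rap1, was at 11.7, 6.95 and 6.16 RPKM in miR_cKO 1 to 3, against 9.75, 6.51 and 12.55 RPKM in controls 1 to 3. Kirrel3, an adhesion molecule, ran from 5.50 to 8.53 RPKM in miR_cKO and from 5.53 to 8.56 RPKM in controls. Dusp8, a phosphatase of stress kinases, covered a narrower range, with the highest library 1.29 times the lowest.

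Runx1, a factor of pain and touch neurons and of blood cells, was at 3.98, 1.30 and 1.67 RPKM in miR_cKO 1 to 3, against 3.45, 1.53 and 4.91 RPKM in controls 1 to 3. Its 3 highest libraries were those of Th. The summed sensory neuron list, with 15 of 16 genes in the table, was at 848, 697 and 561 RPKM in miR_cKO and 795, 674 and 786 RPKM in controls. The summed list of glia and neural crest, with all 10 genes, was at 1180, 1120 and 1030 RPKM in miR_cKO and 1260, 985 and 1170 RPKM in controls. Both lists were thus highest in the same 3 libraries, over a narrower range than Th, and their part in the Th values was not tested.

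**Figure D4:**
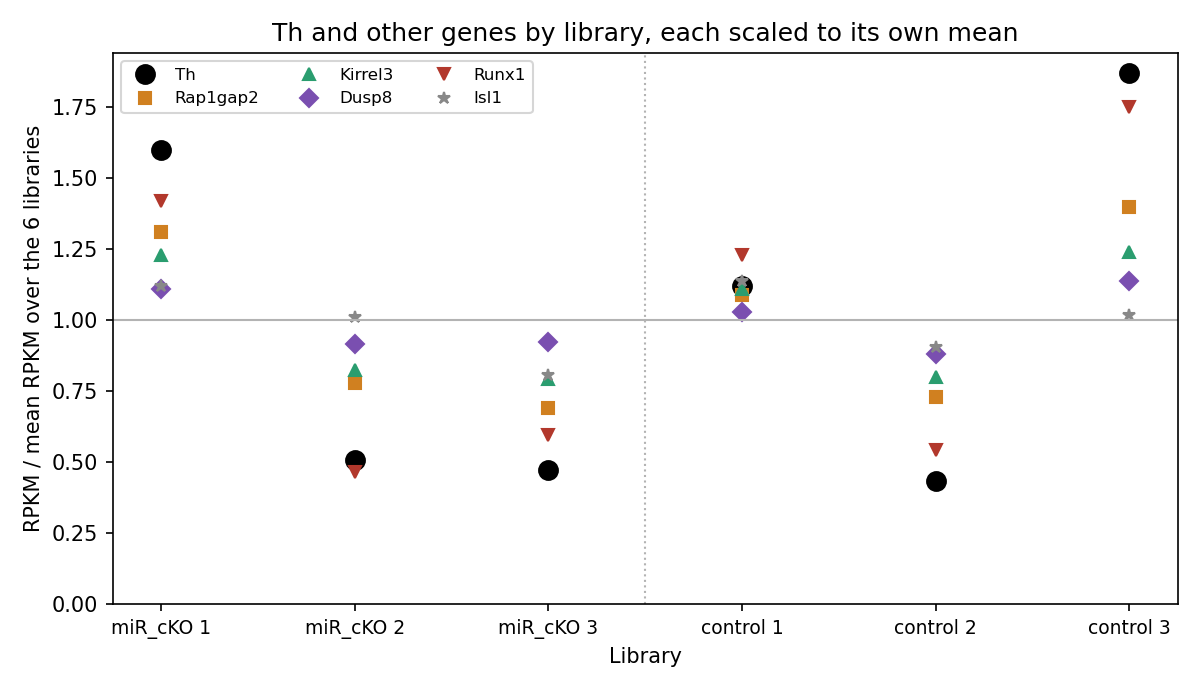
RPKM of Th, Rap1gap2, Kirrel3, Dusp8, Runx1 and Isl1 in each library, divided by the gene's own mean over the 6 libraries (line at 1), for miR_cKO 1 to 3 (left) and controls 1 to 3 (right). Th is above its mean in miR_cKO 1, control 1 and control 3, at 1.60, 1.12 and 1.87, and at 0.508 or less in the other libraries, while Isl1 stays between 0.807 and 1.14.

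Few genes share the exact order of libraries of Th: of 13117 tested genes apart from the members, 33 did (0.252%). That Phox2a, Dbh and Hand1 did not share it therefore says little. Their highest library was miR_cKO 2, for Phox2a level with control 2 (0.605 and 0.604 RPKM). These ranks rest on few reads per library, 14 to 24 for Phox2a, 0 to 8 for Dbh and 0 to 6 for Hand1. Hand2, Gata2 and Gata3 had their highest library in control 3, as Th did, but Gata3 was next highest in control 2, where Th was lowest.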

How the data were processed

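Lumbar ganglion RNA was extracted with Trizol and its polyadenylated part made into stranded libraries, as the labels' protocols state. The submitters' processing notes name Bowtie and mm10; no source used here gives the counting tool or annotation. The authors deposited 1 table of 24264 genes with no unit named in its header. Its deposited values were read as RPKM, because each gene's values were multiples of 1 step, smaller for longer transcripts (Spearman rho -0.893 across 1917 genes; genes are not independent). FPKM would look the same. Among genes above 0 in 2 or more libraries, 93.5% gave whole reads to within 0.02 read, and depth came from these steps and GENCODE M21 lengths.

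Values were transformed to log2(RPKM + 1), genes with at least 3 libraries at 1 RPKM were fitted in limma 3.58.1 under R 4.3.3 (trend and robust empirical Bayes, Benjamini-Hochberg adjustment, threshold 0.05), and the other members were compared by two-sided exact permutation tests in SciPy 1.17.1. No count test was run. Whether a library pooled embryos is not given, so p-values measure the spread between these libraries. Intervals and the 3-read limits cover counting error only. The members, tests and 12 lists were chosen with earlier results of these data known. The rule names all members, up to 4 genes of each other list by level, and 3 genes most like each tested member. Slc6a2, Slc18a1, Slc18a2, Pnmt, Gch1, Ddc, Chat, Slc18a3, Vip, Runx1, Inppl1, Xist and the deleted microRNA genes were named after their values were seen. A few genes of these lists are not reported here. Pathway genes outside the filter were not tested. Alternatives were other pseudocounts, filters and scalings, no trend, a replicate block and each library left out.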

Additional observations from a re-analysis of the deposited data

How the results depend on the processing

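Th passed the threshold under none of the alternatives tried (limma), nor did any other member where limma could be used, without a filter or, for Phox2a and Gata2, at 0.5 RPKM. Elsewhere the other 6 members had exact permutation tests, which cannot go below 0.1. The limit is 0.2 with a library left out and 0.25 with the replicate block, so these tests say nothing about stability. With median centring Phox2a had a log2 difference of 0.0223. With 1 library left out, the log2 difference ranged from -0.0585 to 0.0275 for Phox2a, -0.94 to 0.0556 for Th, -0.0378 to 0.0609 for Dbh, -0.015 to 0.0803 for Hand1, -0.28 to 0.0043 for Hand2, -0.17 to 0.0044 for Gata2 and -0.17 to -0.08 for Gata3. Over the whole table limma called 8 genes as reported, 0 with upper quartile scaling, without trend or with the replicate block, and 2 with median centring, while unadjusted p-values under 0.05 numbered 698, 705, 847 and 688 there. Leaving out 1 library gave 0 to 2 calls, and unadjusted p-values under 0.05 numbered 440 to 1023. The cause of these shifts was not tested. With the replicate block, which pairs libraries that share only a number, Th had a log2 difference of -0.39 (limma adjusted p = 0.948), and was not called. Same-numbered libraries had correlations of 0.359, 0.330 and -0.221. Depth limits the members under 1 RPKM: for Dbh, 3 reads are worth 0.0542 to 0.0651 RPKM.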

Other observations

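Some receptor genes known from autonomic neurons were measured beside the near-zero noradrenaline transporter, while other genes of the cholinergic and chromaffin list were near 0. Chrna3, the nicotinic receptor subunit of autonomic ganglia, was at 12.3, 12.4 and 14.3 RPKM in miR_cKO 1 to 3, against 13.5, 10.2 and 10.8 RPKM in controls 1 to 3, and its partner Chrnb4 at 1.60 to 2.65 and 1.76 to 2.37 RPKM. Htr3a, a serotonin-gated channel, was at 2.89, 0.582 and 0.597 RPKM in miR_cKO and 3.62, 0.433 and 5.43 RPKM in controls, high in the libraries in which Th was high. Of the 10 cholinergic and chromaffin genes, 5 had means under 1 RPKM. Among these were Chat, Slc18a3 and Vip, with 4, 10 and 3 reads over the 6 libraries, of which control 3 held 3, 9 and 2. Of the 10, 5 were tested, 0 rose and 0 fell, 0 had an unadjusted p under 0.05 (limma), and the median log2 difference was -0.30.

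The summed spinal cord list was highest in miR_cKO 3, at 44.4 RPKM, and was at 12.6 to 19.2 RPKM in the other libraries.

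Of the other marker lists, 0 genes rose and 0 fell among the tested 15 for sensory neurons, 12 for endothelium, 5 for blood, 4 for spinal cord, 15 for mesenchyme, 7 for muscle, 3 for epidermis and nephric duct and 9 for glia (limma). Of these, 1 muscle gene had an unadjusted p under 0.05. All 15 mesenchyme and all 7 muscle genes tested were lower in miR_cKO, with median log2 differences of -0.37 and -1.66, where 40.4% of all 13118 tested genes were higher in miR_cKO. Control 1 lay inside the miR_cKO range for both lists, with summed levels of 140 to 224 RPKM in miR_cKO and 165 RPKM in control 1 for mesenchyme, and of 7.32 to 23.3 RPKM and 9.82 RPKM for muscle, so that controls 2 and 3 carried the difference. The epidermis and nephric duct list summed to 11.6 to 22.2 RPKM in miR_cKO and 12.9 to 19.2 RPKM in controls.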
